A study of Arabidopsis thaliana with 32 samples.

Results

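The comparison described here sets polysome RNA of the *MCU2* overexpressor, 2OX, against polysome RNA of wild type, Col-0, in Arabidopsis seedlings. Its members are 6 of the 32 libraries of the series, 3 of 2OX (replicates 1, 2 and 3) and 3 of Col-0 (replicates 2, 3 and 4), chosen as the 6 libraries that the deposited polysome table of 2OX holds. 2OX is 1 transgenic line, 2OX-1, which carries *MCU2* fused to YFP behind the cauliflower mosaic virus 35S promoter in the Col-0 background, in addition to its own *MCU2*. Col-0 carries no transgene. All seedlings were 10 days old and were used whole. Sucrose gradients of cleared lysates gave a monosome fraction, with 1 ribosome on an mRNA, and a polysome fraction, with several, and polyadenylated RNA of each fraction was sequenced. Another experiment of the series, 10-day-old Col-0 seedlings treated in liquid medium with 50 µM antimycin A or with its solvent DMSO, is set beside it where it bears on the same genes. Per the methods these seedlings were shaken overnight in the dark in that medium before the treatment. The labels give 5 h of treatment and the methods 4 h.

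MCU proteins form the pore through which calcium enters the mitochondrial matrix, and MICU is the calcium-sensing subunit that gates it. Plant mitochondria report a disturbed state to the nucleus by a retrograde pathway. In that pathway the membrane-bound transcription factor ANAC017 is released, and together with ANAC013 it activates genes that carry a mitochondrial dysfunction motif in their promoters. The best known target is *AOX1A*, an alternative oxidase that passes electrons to oxygen around complex III, and antimycin A, which blocks complex III, is the usual trigger. RNA on polysomes is a measure of how much of an mRNA is being translated, and it moves both with the amount of the mRNA and with how densely ribosomes load it.

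The values are reads per gene that the authors adjusted for library size, called values below, and differences are on the log2(value + 1) scale, with the standard error of the fit. That scale understates the change of genes with low values. The values of a library summed to between 28733570 and 38319305 in 2OX, against 30684822 to 37937060 in Col-0, and 3 ribosomal RNA genes took 31.5% to 42.5% of them in 2OX, against 30.0% to 43.4% in Col-0. How many reads lie behind a value is unknown. The 6 libraries were of 2 kinds by their smallest values, a split the labels do not name. Replicates 1 and 2 of 2OX and replicate 3 of Col-0 held 719 to 1324 values above 0 and under 0.05 and listed 819 to 885 genes at 0. Replicate 3 of 2OX and replicates 2 and 4 of Col-0 held 0 such values and listed 2181 to 2326 genes at 0. Both kinds hold both lines. The labels do not say whether replicates came from separate cultures, so that p-values measure the spread between these samples, which may be technical.

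Of 19873 genes with a value of 10 or more in at least 3 of the 6 libraries, 34 differed between 2OX and Col-0 (limma, adjusted p under 0.05), which is 0.171% of the genes tested. Higher in 2OX were 29 genes (0.146%) and lower were 5 (0.0252%). The median difference over all genes was -0.0075. In all 34 genes every 2OX value lay beyond every Col-0 value, against 5.36% of all genes above and 5.09% below. They therefore had to differ in the same direction within both kinds of library, which is no separate evidence. With the kind of library as a block 31 of them were still called. In bulk samples such as these, fewer cells of a type and less RNA per cell cannot be told apart. The plot of called genes gives the difference of each. Of the 29 genes that rose, 8 belong to a list of 34 mitochondrial retrograde genes, 5 encode proteins of the DUF295 family, and the others include *MCU2* itself, a pair of embryo-defective genes and genes of no known function. The 5 genes that fell include *RCI2B* and a phosphatidylinositol 4-kinase-like gene.

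**Figure D1:**
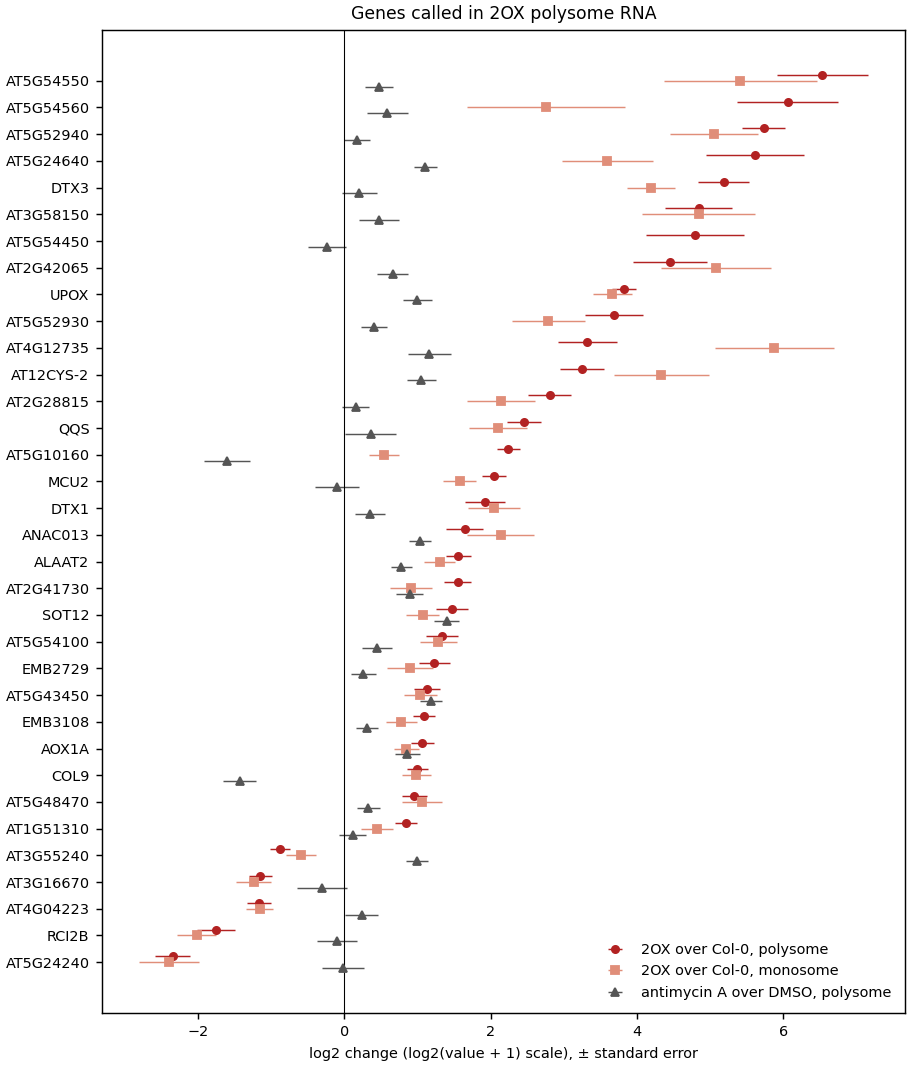
Difference in log2(value + 1) for the 34 genes called in polysome RNA, with the standard error, in the order of the polysome difference. Red circles are 2OX over Col-0 in polysome RNA, light squares 2OX over Col-0 in monosome RNA and grey triangles antimycin A over DMSO in polysome RNA (3 libraries a group). The 33 genes tested in both fractions lay on the same side of 0 in both, and AT5G54450 has no square because too few monosome libraries reached the minimum value. The point of AT5G54560, listed at 0 in all 3 Col-0 libraries, is the fitted difference and not a measure of fold.

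The mitochondrial dysfunction motif was searched because the retrograde genes were among those called. It was spelled CTTGNNNNNCAAG or CTTGNNNNNCACG and was looked for on both strands in the 500 bases before the gene start of RefSeq's TAIR10.1 annotation. Of the 29 genes higher in 2OX, 11 held a match (37.9%), against 353 of 19804 promoters of tested genes (1.78%). Of the 29 genes, 5 had all Col-0 values under 10 and were tested only because of their 2OX values, and 4 of these held a match. Of the other 24 genes 7 did (29.2%). None of the 5 genes lower in 2OX did. The 11 genes held 13 matches, 25 to 215 bases before the gene start, and 10 matches had the first spelling. Of the called retrograde genes only *UPOX* and *DTX3* held a match. *AOX1A*, *AT12CYS-2*, *DTX1*, *ANAC013*, *SOT12* and AT2G41730 held none in the spellings and window searched. The matches of 9 of the 11 genes are shown. Of these genes 3 belong to the DUF295 family, so the matches may not all be independent of each other. Each runs 5′ to 3′ along the gene's own strand with 20 bases on each side where the window allows, and capitals mark the match.
*UPOX*, 51 bases before the gene start (chr2:9254307-9254359, forward strand): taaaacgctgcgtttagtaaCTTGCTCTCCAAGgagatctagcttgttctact
*DTX3*, the farther of its matches, 215 bases before (chr2:1339651-1339703, reverse strand): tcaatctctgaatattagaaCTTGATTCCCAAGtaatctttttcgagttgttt
*DTX3*, the nearer, 156 bases before (chr2:1339592-1339644, reverse strand): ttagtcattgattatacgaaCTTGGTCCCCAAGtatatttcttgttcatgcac
AT5G54550, a DUF295 gene, 58 bases before (chr5:22158286-22158338, forward strand): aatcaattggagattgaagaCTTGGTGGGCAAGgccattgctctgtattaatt
AT5G52930, a DUF295 gene with the second spelling, 56 bases before (chr5:21470223-21470275, forward strand): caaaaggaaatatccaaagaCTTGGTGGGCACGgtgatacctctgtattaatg
AT5G54450, a DUF295 gene, 117 bases before (chr5:22109464-22109516, reverse strand): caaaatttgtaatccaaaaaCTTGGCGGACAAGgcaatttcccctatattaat
AT3G58150, annotated as an optic atrophy 3 protein, 25 bases before (chr3:21534136-21534180, reverse strand): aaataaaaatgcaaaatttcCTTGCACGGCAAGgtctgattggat
AT2G42065, annotated as a DnaJ domain protein, 55 bases before (chr2:17553051-17553103, reverse strand): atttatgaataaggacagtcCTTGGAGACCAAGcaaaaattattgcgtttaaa
AT2G28815, annotated as a ribosomal protein L16, 37 bases before (chr2:12368069-12368121, reverse strand): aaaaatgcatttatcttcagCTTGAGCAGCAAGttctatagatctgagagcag
AT5G54100, a band 7 family protein with the second spelling read on the opposite strand, 117 bases before (chr5:21956665-21956717, reverse strand): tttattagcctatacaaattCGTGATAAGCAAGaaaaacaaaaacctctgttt
A match is a stretch of letters and not a shown binding site. With 1000 bases in place of 500, 37.9% of the genes higher in 2OX held a match, against 3.94% of the tested genes.

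A match in the promoter went with no shift in most genes. Of the 353 tested genes with one, 11 were called higher in 2OX (3.12%). At an unadjusted p under 0.05, which 5.76% of all genes had, 29 of the 353 were higher and 7 were lower, and the median difference was -0.0051. The plot by position shows all 353. Among those not called were *LETM1*, which encodes a protein of the inner mitochondrial membrane, at 0.86 ± 0.19 (adjusted p = 0.203), the external NADH dehydrogenase gene *NDB3* at 1.34 (adjusted p = 0.534), and the mitochondrial small heat shock protein gene *HSP23.5* at 1.54 (adjusted p = 0.238). *LETM1* was named after its values were seen.

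**Figure D2:**
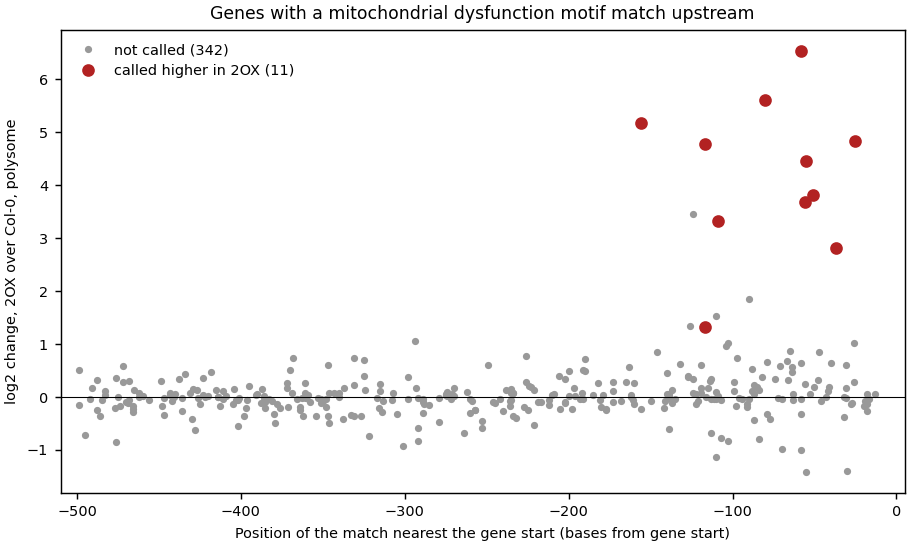
Difference between 2OX and Col-0 in polysome RNA (vertical axis, log2(value + 1) scale) against the distance of the nearest motif match from the gene start (horizontal axis, bases) for the 353 tested genes with a match in the 500 bases before it. The 11 genes called higher, in red, have their nearest match 25 to 156 bases from the start, and the 342 grey points are genes not called.

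*MCU2* was the member of its family that changed. Its values were 999, 763 and 892 in 2OX, against 196, 216 and 227 in Col-0, and no Col-0 library came near any 2OX library. The means were 885 ± 118 in 2OX and 213 ± 15.4 in Col-0 (SD, n = 3 each), a difference of 2.04 ± 0.16 or 4.12-fold (adjusted p = 3.0e-05). The gene lies at chr1:21337125-21339034 in TAIR10.1, and reads of the transgene and of the gene itself are counted together. Without each library in turn the difference stayed between 1.95 and 2.15. The other pore genes did not pass the test. *MCU6* was at 647, 371 and 456 in 2OX, against 396, 391 and 372 in Col-0, a difference of 0.31 ± 0.19. *MCU3* (-0.078) and *MCU1* (-0.077) overlapped between the lines, and so did *MCU4* (0.37), whose values lay between 2.42 and 17.9. *MCU5* was below the minimum, at 8.83, 0.387 and 13.9 in 2OX, against 7.7, 6.68 and 8.34 in Col-0. The regulator *MICU*, with the highest values of the family in every library, was at 3610.2, 2851 and 4113 in 2OX, against 3166, 3270.2 and 3946 in Col-0, a difference of 0.017 ± 0.16. The signs of the small differences of *MCU1*, *MCU3*, *MCU4* and *MICU* turned when single libraries were left out.

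Of the mitochondrial retrograde genes, 8 rose. *UPOX*, an early marker of the response to oxidative stress that encodes a mitochondrial protein, was at 1734, 1784 and 1382 in 2OX, against 107, 111 and 125 in Col-0. The libraries of each line lay within a narrow range, and the difference of 3.82 ± 0.16 (14.1-fold) had the lowest p of all genes tested (adjusted p = 5.3e-08). *AT12CYS-2*, which encodes a small mitochondrial protein with paired cysteines, was at 438, 418 and 247 in 2OX, against 24.9, 36.5 and 53.6 in Col-0, a difference of 3.25 ± 0.30 (adjusted p = 0.000169). *AOX1A* was at 2539, 2474 and 1862 in 2OX, against 969, 1238 and 1063 in Col-0. The lines did not overlap, and the difference of 1.07 ± 0.16 (2.09-fold) was the smallest of the called retrograde genes (adjusted p = 0.00812). Its adjusted p was between 0.0698 and 0.102 without replicate 1 of 2OX or without replicate 2 or 4 of Col-0, with a difference of 0.98 to 1.05.

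Among the other retrograde genes, *DTX3* and *DTX1* encode efflux carriers of the MATE family and lie next to each other on chromosome 2 with 629 bases between them. *DTX3* was at 394, 276 and 379 in 2OX, against 11.6, 11 and 4.73 in Col-0, a difference of 5.18 ± 0.35 (36.4-fold, adjusted p = 5.9e-06). *DTX1* was at 155, 143 and 189.5 in 2OX, against 36.5, 56.1 and 35.5 in Col-0, a difference of 1.92 ± 0.27 (adjusted p = 0.00534). Both were higher in every 2OX library than in any Col-0 library. Their exons share sequence, with 3.57% of the 50-base windows of *DTX3* and 7.09% of those of *DTX1* present elsewhere in the genome. Of the 40 tested genes annotated as MATE efflux family proteins no other was called. The transcription factor gene *ANAC013*, named *NAC13* in RefSeq, was at 196, 179 and 205 in 2OX, against 45.1, 62 and 81 in Col-0, a difference of 1.65 ± 0.25 (adjusted p = 0.0101). *SOT12*, a sulfotransferase gene, was at 991, 867 and 1076 in 2OX, against 252, 503 and 339 in Col-0 (1.47 ± 0.22, adjusted p = 0.00789). AT2G41730, annotated as a calcium-binding site protein, was at 457, 535 and 448 in 2OX, against 174, 134 and 185 in Col-0 (1.55 ± 0.18, adjusted p = 0.00117). *ANAC013* and *SOT12* were each called in 2 of the 6 fits that left out 1 library.

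**Figure D3:**
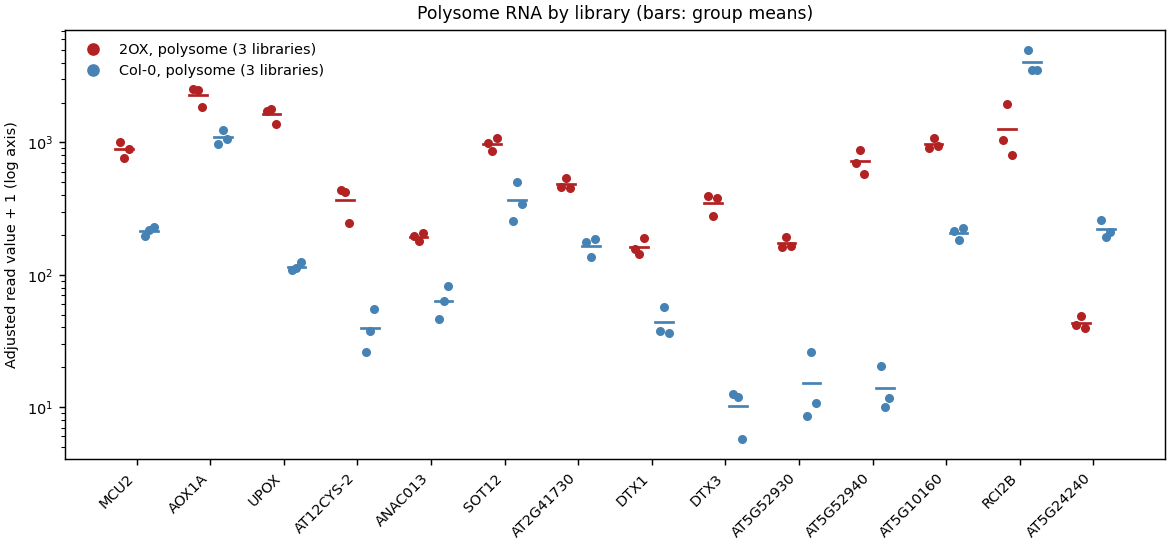
Values by library for 14 genes called in polysome RNA (vertical axis, value + 1, log scale), with 2OX in red left of Col-0 in blue and bars at the group means. For each gene the 3 libraries of 2OX lie on 1 side of the 3 of Col-0, above it from *MCU2* to AT5G10160 and below it for *RCI2B* and AT5G24240.

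In all, 33 of the 34 listed retrograde genes were in the table and 28 were tested, *NDB4* through its 2OX values alone. Called higher were 8 and called lower 0, against 0.146% and 0.0252% of all genes tested. All 2OX values were above all Col-0 values in 15, against 5.36% of all genes tested. The median of the 28 genes was 0.70. The list was chosen with earlier results of these data known, so its counts are no independent support. Other genes of the pathway did not pass. Its upstream factor *ANAC017* was at 1255, 1219 and 1249 in 2OX, against 1401, 1243 and 1187 in Col-0 (-0.038 ± 0.13), and the lines overlapped. *NDB2*, the external NADH dehydrogenase gene, was at 258, 319 and 304 in 2OX, against 318, 439.9 and 347 in Col-0 (-0.32 ± 0.18, adjusted p = 0.952). The glutathione transferase gene *GSTU25* was at 0.17 (adjusted p = 0.988). *WRKY15*, which encodes a transcription factor, was lower in each 2OX library than in any Col-0 library, at 1527, 1209 and 1699 in 2OX, against 1998, 2348 and 2143 in Col-0, but its difference of -0.56 ± 0.15 was not called (adjusted p = 0.381). Among the members with differences above 1 that were not called, *NDB4*, an external NADH dehydrogenase gene, was at 40.9, 56.1 and 28.8 in 2OX, against 2.87, 0.0748 and 6.92 in Col-0 (3.69, adjusted p = 0.103), *TIM17-1*, a subunit of the inner membrane import channel, at 2.01 (adjusted p = 0.606), and *UGT74E2*, an auxin glucosyltransferase gene, at 1.15 (adjusted p = 0.556).

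The DUF295 genes encode a plant family of proteins of little known function. RefSeq annotates 69 of them, 33 of which were in the table and 17 tested. Called higher were 5 and called lower 0, against 0.146% and 0.0252% of all genes tested. All 5 lie between positions 21470299 and 22162513 of chromosome 5. AT5G52940 had the highest level of the 5, at 700.2, 871 and 578 in 2OX, against 19.3, 8.98 and 10.7 in Col-0, a difference of 5.73 ± 0.29 (53.1-fold, adjusted p = 2.7e-07). Its neighbour AT5G52930, 241 bases away, was at 162, 191 and 164 in 2OX, against 7.63, 25 and 9.73 in Col-0 (3.69 ± 0.40, adjusted p = 0.00046). AT5G54550 was at 168, 146 and 147 in 2OX, against 0, 0.0295 and 3.52 in Col-0, and the next gene, AT5G54560, at 67.5, 70.9 and 59.2 in 2OX, against 0, 0 and 0 in Col-0. In Col-0 both were at or near 0 in all libraries, so that no fold is given (adjusted p = 0.000169 and 0.000825). AT5G54450 was at 41.2, 68 and 57.8 in 2OX, against 1.93, 0.0296 and 1.68 in Col-0 (adjusted p = 0.00534). The lines were far apart for each of the 5 genes. AT5G54550, AT5G54560 and AT5G54450 entered the test through their 2OX values alone, as all of their Col-0 values were under 10, and without any 1 of the 2OX libraries they were not tested. At most 0.954% of the 50-base windows of any of the 5 occur elsewhere in the genome. The other 12 tested members lay between -0.40 and 0.58, and none was called. Of the members not tested, AT4G25930 was at 4.69, 23.7 and 15.1 in 2OX, against 0, 0 and 0 in Col-0.

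Of the other genes that rose, the largest differences were in genes almost silent in Col-0. AT5G24640, of no known function, was at 177, 143 and 242 in 2OX, against 10.7, 0.0986 and 3.2 in Col-0 (5.61 ± 0.67, adjusted p = 0.00123), and AT3G58150 at 248, 236 and 197 in 2OX, against 9.64, 2.4 and 12.7 in Col-0 (4.84 ± 0.46, adjusted p = 0.000169). AT2G42065 was at 87.4, 84.3 and 103 in 2OX, against 1.89, 2.28 and 6.88 in Col-0 (4.45) and AT4G12735 at 67.6, 85.2 and 88 in 2OX, against 5.75, 6.67 and 9.26 in Col-0 (3.32). Both of these were tested through their 2OX values alone as well. AT2G28815 was at 160.4, 149 and 172 in 2OX, against 19.2, 30.7 and 18.1 in Col-0 (2.81 ± 0.29). These 5 genes all hold the motif and none of their 2OX values overlapped with Col-0. *QQS*, a gene known only from Arabidopsis whose product sets the balance of starch and protein, was at 394, 289 and 381 in 2OX, against 83.8, 51.1 and 58.8 in Col-0 (2.46 ± 0.23, adjusted p = 0.000169).

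The other genes that rose had values of at least 127 in every Col-0 library. AT5G10160, annotated as a thioesterase superfamily protein, was at 910.4, 1071 and 946 in 2OX, against 214, 182 and 223 in Col-0 (2.24 ± 0.16, adjusted p = 8.7e-06). Its annotated span overlaps that of *MIPS3* on the opposite strand, an inositol phosphate synthase gene, which was at 811, 1015 and 709 in 2OX, against 858, 1056 and 832 in Col-0 (-0.12) and did not separate the lines. *ALAAT2*, an alanine aminotransferase gene, was at 798, 616 and 779.9 in 2OX, against 266, 226 and 247 in Col-0 (1.56 ± 0.16, adjusted p = 0.000417). *COL9*, which encodes a CONSTANS-like protein that delays flowering, was at 1119, 981 and 966 in 2OX, against 528, 458 and 549.7 in Col-0 (1.00 ± 0.15, adjusted p = 0.00789). AT5G43450, of the 2-oxoglutarate-dependent oxygenases, was at 1867, 2147 and 1535 in 2OX, against 723, 1081 and 749 in Col-0 (1.13, adjusted p = 0.0149). The RNA helicase gene *EMB3108* was at 707, 625 and 732 in 2OX, against 314, 337 and 318 in Col-0 (1.09). AT1G51310, annotated as a tRNA methyltransferase, was at 498, 500.3 and 502 in 2OX, against 267, 285 and 281 in Col-0 (0.85), the smallest difference among the genes that rose. AT5G48470 (0.96), of unnamed function in the annotation, *EMB2729* (1.23), of the alpha-amylase family, and AT5G54100 (1.33) complete the set. AT5G54100, AT5G48470 and AT1G51310 were not called with the kind of library as a block (adjusted p = 0.0683, 0.12 and 0.118). Of the 6 fits that left out 1 library, *EMB2729*, AT5G48470 and AT1G51310 were each called in 1, *COL9*, AT5G43450 and AT5G54100 in 3 and *EMB3108* in 4.

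Of the genes that fell, AT5G24240, annotated as a phosphatidylinositol 4-kinase gamma-like gene, was at 41, 47.6 and 38.6 in 2OX, against 259.9, 191 and 211 in Col-0 (-2.35 ± 0.24, adjusted p = 0.00027). The gene that overlaps it on the opposite strand, AT5G24230, was at 0.17. *RCI2B*, which encodes a small membrane protein induced by cold and salt, was at 1033, 1962 and 800.2 in 2OX, against 5016, 3531 and 3505 in Col-0 (-1.75 ± 0.26, adjusted p = 0.00826). Replicate 2 of 2OX lay between the other 2OX libraries and Col-0. Its close relative *RCI2A* was at 9614, 10951 and 5646 in 2OX, against 20878, 13464 and 14558 in Col-0, lower in each 2OX library than in any of Col-0 but not called (-0.93 ± 0.23, adjusted p = 0.272). AT3G16670, of the pollen Ole e 1 and extensin family, was at 549.6, 539 and 401 in 2OX, against 1057, 1178 and 1043 in Col-0 (-1.15, adjusted p = 0.00534). AT3G55240, of unknown function, was at 1009.9, 936 and 1084 in 2OX, against 1765, 1826 and 1974 in Col-0 (-0.88, adjusted p = 0.0096). The non-coding AT4G04223 was at 284, 225 and 218 in 2OX, against 578, 497 and 551 in Col-0 (-1.16, adjusted p = 0.00773), and 71.5% of its 50-base windows occur elsewhere in the genome, so that its reads may belong to other loci. Of the 6 fits that left out 1 library, AT5G24240 was called in 6, AT3G16670 in 5, *RCI2B* and AT4G04223 in 3 and AT3G55240 in 2.

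The same lysates gave monosome RNA, which shows whether the polysome differences stood alone. In monosome RNA 17 of 19637 genes were called (0.0866%), 12 higher (0.0611%) and 5 lower (0.0255%) in 2OX. Of the 34 genes called in polysome RNA 33 were tested there. All 33 had the same sign, 32 had an unadjusted p under 0.05, against 4.9% of all genes, and 14 were called as well. *UPOX* differed by 3.66 in monosomes (adjusted p = 1.4e-05), *DTX3* by 4.19, *MCU2* by 1.58, and *RCI2B* by -2.02. *AOX1A* had monosome values of 1019.6, 879.9 and 939 in 2OX, against 491, 596 and 494 in Col-0, without overlap, and a difference of 0.85 that was not called (adjusted p = 0.128). Called in monosome RNA and not in polysome RNA were 3 genes, *NAC044* at 3.28, *RCI2A* at -1.07 and *SAUR20* at -1.32, with polysome differences of 0.87, -0.93 and -0.88.

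The polysome difference minus the monosome difference was tested for 20597 genes, and 1 passed (0.00486%). This was AT5G10160, with a polysome difference of 2.24 and a monosome difference of 0.54. Its monosome values were 435, 436 and 488 in 2OX, against 254, 317 and 369.7 in Col-0, and those of 2OX were above those of Col-0 by far less than in polysomes. The difference between the fractions was 1.70 ± 0.25 (adjusted p = 0.0362). With both fractions of a lysate as a pair it had an adjusted p of 0.000631. It was not called when any 1 of the 6 lysates was left out (1.59 to 1.87, adjusted p = 0.0766 to 0.811). For *MCU2* the difference between the fractions was 0.47 ± 0.28, for *AOX1A* 0.22 ± 0.22 and for *UPOX* 0.16 ± 0.27, none of which passed.

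Antimycin A was set beside 2OX because it acts on mitochondria in a known way. Its libraries were scaled in a table of their own and share no library with 2OX or Col-0, and 3883 of 20614 genes were called in polysome RNA (18.8%), 1748 higher (8.48%) and 2135 lower (10.4%). Of the 29 genes higher in 2OX, 11 were called higher and 2 lower after antimycin A. *UPOX* was at 42242, 30258 and 24925 after antimycin A, against 17685, 14647 and 15384 after DMSO (1.00, adjusted p = 0.0052). *AOX1A* was at 42889.8, 41338 and 49386 after antimycin A, against 27113, 24117 and 22477 after DMSO (0.86, adjusted p = 0.00436). *ANAC013* (1.03), *SOT12* (1.40) and *AT12CYS-2* (1.05) were called higher too. *DTX3* was at 0.21 (adjusted p = 0.595) and AT5G52940 at 0.17 (adjusted p = 0.553), and neither passed. The 2 genes that fell after antimycin A were AT5G10160, at 153, 136 and 61.6 after antimycin A, against 315, 319.7 and 364 after DMSO (-1.60), and *COL9* (-1.43). Of the 5 genes lower in 2OX 1 was called higher after antimycin A, AT3G55240 (1.00).

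After antimycin A 15 of the 28 tested mitochondrial retrograde genes were called higher, beside 8.48% of all genes tested. In 2OX 8 of the 28 were called higher, beside 0.146% of all genes tested. *GSTU25* (2.28), *NDB2* (1.42) and *ANAC053* (1.39) were higher after antimycin A, and in 2OX they were at 0.17, -0.32 and 0.076, not called. *ANAC053*, named after its values were seen, encodes a NAC transcription factor. Of 1610 genes called higher after antimycin A and tested in both experiments, 41 held the motif (2.55%), against 343 of all 19367 genes tested in both (1.77%). The DMSO seedlings were also set beside 2OX and Col-0. In 25 of the 29 genes that rose in 2OX (86.2%) all 3 DMSO values exceeded all 3 values of 2OX. The same held for 4 of the 5 genes that fell (80%) and for 60.5% of all tested genes. On the log2 scale, mean DMSO minus mean Col-0 levels had a median of 5.17 in the genes that rose. It was 0.54 in those that fell and 0.68 in all tested genes. The genes that rose were picked with these same Col-0 values. Both tables were scaled apart, and liquid medium, shaking and the dark night cannot be told apart from the table. *UPOX*, at 14647 to 17685 after DMSO, was at 1382 to 1784 in 2OX and at 107 to 125 in Col-0.

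No gene of mitochondrial protein folding or import passed the test. Of 14 mitochondrial chaperone genes tested, 0 were called, 4 were higher at an unadjusted p under 0.05 (all genes: 2.95%) and 13 were above 0, with a median of 0.35. Above 0 were 9662 of all 19873 genes tested. *HSP70-9*, which encodes a chaperone of the matrix, was at 815, 804 and 814 in 2OX, against 468, 521 and 599.7 in Col-0 (0.62 ± 0.15, adjusted p = 0.235). The J-protein gene *GFA2* was at 243, 294 and 277 in 2OX, against 212, 190.3 and 218 in Col-0 (0.39). Of 27 genes of import and proteases tested, 0 were called and 6 were higher at an unadjusted p under 0.05. The median was 0.11, with 17 genes above 0 and 10 below. The lowest were *DIC3*, a dicarboxylate carrier gene, at -0.44, and *FTSH10*, a protease gene of the inner membrane, at -0.28. The genes given next were among the highest. *OM64*, a receptor of the outer membrane, was at 177, 179.7 and 179.7 in 2OX, against 90.5, 93.9 and 82.1 in Col-0 (1.00 ± 0.20, adjusted p = 0.101). *TOM7-2*, a subunit of the outer membrane channel, was at 203, 296 and 182 in 2OX, against 131, 78.8 and 97 in Col-0 (1.14, adjusted p = 0.172), and *LON1*, a protease of the matrix, at 392, 374 and 419 in 2OX, against 273, 231 and 233 in Col-0 (0.68, adjusted p = 0.238). These 3 genes separated the lines in every library. Of the 27 genes 7 had all 2OX values above all Col-0 values and 1 had all below, against 5.36% and 5.09% of all genes. Of the 14 mitochondrial chaperone genes 5 lay above in this way and 0 below.

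No gene on the lists of oxidative phosphorylation and of ribosomes passed the test. Of all 19873 genes tested 9662 lay above 0 and 10211 below. Of 75 oxidative phosphorylation genes 0 were called, and 60 lay below 0, with a median of -0.11. Photosynthesis genes leaned the same way, with 34 of 44 below 0 and a median of -0.066. Of 58 mitochondrial ribosome genes 0 were called, and 39 lay above 0, with a median of 0.13. That list, which the study chose, holds 9 genes whose annotated families are known from the cytosolic ribosome, 2 of them also on the cytosolic list. Of those 9 genes 1 lay above 0 (median -0.17), and of the other 49 genes 38 did (median 0.16). The 9 were marked after their values were seen. Of 123 cytosolic ribosome genes 0 were called and 0 had an unadjusted p under 0.05. In polysome RNA 114 of them lay below 0, with a median of -0.13, and in monosome RNA the median was 0.018. *RPL34A* was at 1429, 1706 and 2025 in 2OX, against 2183, 1892 and 2255 in Col-0 (-0.31, adjusted p = 0.9). The plot of gene groups shows these lists beside the others.

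**Figure D4:**
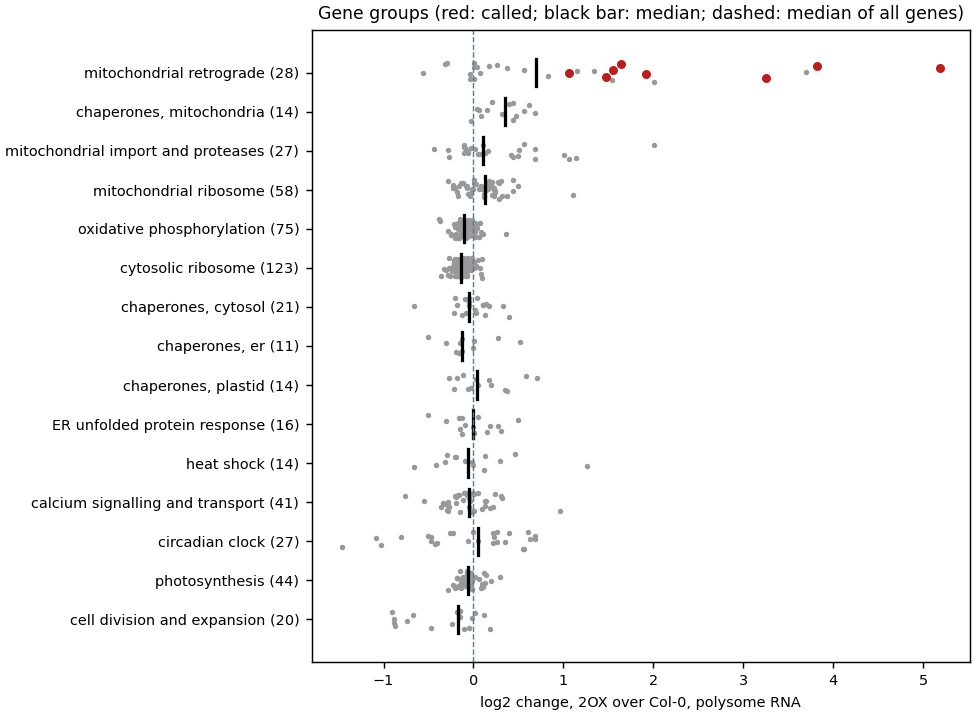
Difference between 2OX and Col-0 in polysome RNA (horizontal axis, log2(value + 1) scale) for each tested member of 15 gene lists, with the number tested in brackets. Called genes are red, black bars are medians, and the dashed line is the median of all genes at -0.0075; called genes occur in the mitochondrial retrograde list, whose median is 0.70, and in none of the other 14 lists.

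Clock genes, whose transcripts cycle over the day, lay on both sides of 0. None of the 27 passed the test. At an unadjusted p under 0.05 there were 7 higher genes and 6 lower ones, against 2.95% and 2.81% of all genes. Among genes that peak around dawn, *RVE8* was at 27.9, 36.5 and 59.3 in 2OX, against 105, 133 and 96.1 in Col-0 (-1.46 ± 0.31, adjusted p = 0.147), *CCA1* at 148, 113 and 186 in 2OX, against 262, 368 and 275 in Col-0 (-1.02, adjusted p = 0.159), and *LHY* at 76.6, 63.1 and 165 in 2OX, against 166, 272 and 172 in Col-0 (-1.09, adjusted p = 0.509). All 3 were lower in each 2OX library than in any Col-0 library. Of the 27 genes 5 were lower in this way and 6 were higher, against 5.09% and 5.36% of all genes. Of genes that peak later in the day, *TOC1* was at 1719.8, 1372 and 1647 in 2OX, against 930.5, 972 and 1154 in Col-0 (0.63 ± 0.15, adjusted p = 0.226), *FKF1* at 949, 875 and 729 in 2OX, against 502, 451 and 645 in Col-0 (0.68), and *GRP7*, an RNA-binding protein gene under clock control, at 15715, 14248 and 12691 in 2OX, against 9149, 9579 and 10425 in Col-0 (0.55). These were higher in each 2OX library. Monosome differences had the same signs, at -1.54 for *RVE8*, -0.94 for *CCA1* and 0.70 for *TOC1*. Seedlings grew under long days, and the hour of harvest is not given in the sources used here. After antimycin A *RVE8* (1.39), *CCA1* (1.61) and *LHY* (1.55) were called higher.

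**Figure D5:**
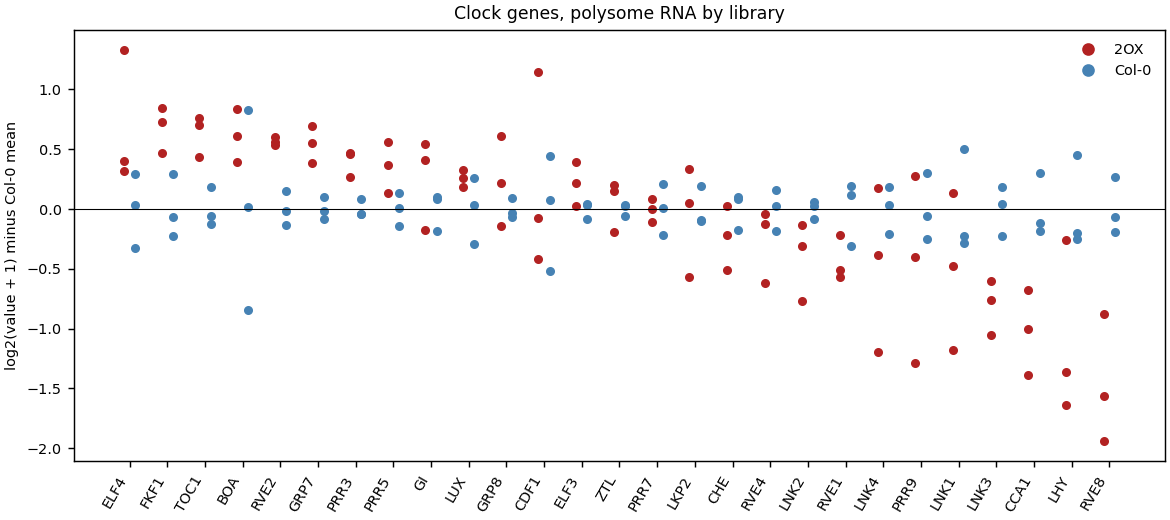
Polysome values of 27 clock genes by library, as log2(value + 1) minus the Col-0 mean of the gene (vertical axis), ordered by the difference between the lines, with 2OX in red left of Col-0 in blue. The libraries of both lines do not overlap for *TOC1*, *FKF1* and *GRP7* at the left, where 2OX is higher, nor for *RVE8*, *LHY* and *CCA1* at the right, where 2OX is lower; none of the 27 genes passed the test.

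Of 20 genes of cell division and expansion 0 were called, 6 were lower at an unadjusted p under 0.05 (all genes: 2.81%), and the median was -0.17. They were *EXPA8* and 5 genes of the *SAUR* cluster on chromosome 5, small auxin-induced genes of similar sequence whose reads the counting could split between them. *SAUR20* was at 460.0, 437 and 377 in 2OX, against 1120.3, 500.3 and 839 in Col-0 (-0.88 ± 0.24, adjusted p = 0.381). Its Col-0 values spread more than its 2OX values. Of 14 heat shock genes tested 0 were called, with a median of -0.060, while 13 were called higher after antimycin A. *HSP70-4*, a cytosolic chaperone gene, was at 35.5, 60.9 and 27.2 in 2OX, against 51.9, 79.4 and 58 in Col-0 (-0.66), and *DREB2A*, a transcription factor gene of heat and drought, at 87.4, 82.9 and 96.7 in 2OX, against 117, 101 and 109.6 in Col-0 (-0.29). After antimycin A they were at 2.45 and 3.45. None of the 16 genes of the unfolded protein response of the endoplasmic reticulum, 44 photosynthesis genes, 41 genes of calcium signalling and transport or 12 genes of translation control was called.

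The balance of organs in the seedlings was described by markers. The 18 root markers added up to 8621 to 11090.2 in 2OX, against 10453 to 11136 in Col-0, and the 11 shoot markers to 5444 to 6978 in 2OX, against 5948 to 6857 in Col-0. Both ranges overlapped between the lines, and no marker was at 0 in any library. Of the 28 tested markers 0 were called.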

How the data were processed

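Polysome and monosome RNA of 2OX and Col-0 was analysed, with polysome RNA of antimycin A and DMSO seedlings set beside it. The deposited tables give a signal for each gene, reads that the authors adjusted for library size table by table. They are not whole counts, so the depth is unknown and no model of counts was used. Per the labels' processing notes, Bowtie 0.12.2 and TAIR10 were used upstream. The fold changes, p-values and importance scores of the authors' own comparisons, deposited in the same tables, were not used. Genes that reached a value of 10 in 3 or more libraries entered a limma 3.58.1 fit (R 4.3.3) of log2(value + 1) that lets the variance follow the mean. Its two-sided p-values were adjusted by Benjamini-Hochberg over all its genes, with a threshold of 0.05. The design had foreseen a model of counts if the columns held counts. Polysome and monosome changes were compared by the interaction of line and fraction. Fractions of 1 replicate came from the same lysate. They deviated from their group means with correlations of 0.0912 to 0.302, all positive and over 0.1 in 5 of 6. The fit without pairs was the planned one and is given first, with the paired value beside it.

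Named genes were *MCU1* to *MCU6* and *MICU*, all called genes, their annotated families, and of each list the 2 with the smallest p and the 2 with the highest values. The members and lists were chosen with earlier results of these data known. Others were named after their values were seen: the clock, retrograde, import and growth genes beyond those, and *NAC044*. IDs were matched to RefSeq's TAIR10.1 annotation, 25131 of 25248. On simulated data with 19873 genes and 200 changed, the polysome fit called 39% of genes changed by 1 and 88% of genes changed by 2 (log2). Of its calls 7.14% and 2.76% were false. The changed genes were drawn only from those above a minimum mean level, so recovery of genes with low values was not measured. Alternatives were pseudocounts, filters, scalings, the variance model, blocks and leaving out each library. Figures were drawn with matplotlib 3.10.9 in Python 3.11.15.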

Additional observations from a re-analysis of the deposited data

Results flagged for a closer look

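The difference between 2OX and Col-0 was not the same in both fractions for AT5G10160, a thioesterase superfamily gene: the polysome difference exceeded the monosome difference by 1.70 ± 0.25 (limma, interaction of line and fraction, adjusted p = 0.0362), the only gene of 20597 that passed. At an unadjusted p under 0.05 were 340 genes, and 685 with both fractions of a lysate as a pair. All 3 2OX libraries were above all 3 Col-0 libraries in both fractions. No sample was searched for outlying values, since groups of 3 are too small for it.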

How the results depend on the processing

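Of 17 alternatives of the polysome fit, which called 34 genes, none turned the sign of a called gene. Pseudocounts of 0.5 and 5, both filters, centring on the median, quantile normalization, TMM factors and the kind of library as a block, which was added after seeing the data, called 30 to 39 genes. Without a variance trend 20 genes were called, and with array weights 56. Leaving out 1 library gave 19 to 110 calls. The highest number, 46 higher and 64 lower, came without replicate 2 of 2OX, and 29 of the 34 genes were among them. Without replicate 1 of 2OX 19 genes were called, without replicate 3 of 2OX 20 and without replicate 2 of Col-0 22. All 6 of these fits called 14 of the 34 genes. The cause was not tested. Replicate numbers 2 and 3 occur in both lines. Same-numbered libraries deviated from their group means with correlations of -0.037 and -0.092, and differently numbered ones with -0.065 to 0.119. So few pairs cannot decide whether the numbers pair the libraries. With the replicate block 9 genes were called, all higher and all among the 34. That fit rests on numbers 2 and 3, since replicate 1 of 2OX and replicate 4 of Col-0 have no partner.

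In monosome RNA, with 17 calls, a pseudocount of 5 gave 19, the replicate block 10 and leaving out 1 library 4 to 30, the highest without replicate 2 of 2OX. The 1 call for the difference between fractions was kept with a pseudocount of 5 and with the replicate block, and leaving out any lysate gave 0 calls, while with all lysates 340 genes had an unadjusted p under 0.05, and 685 with the replicate block. Of the genes that did not pass, small differences turned sign: *MCU1* (0.049 with the replicate block, -0.25 to 0.094 without single libraries), *MCU3* (-0.22 to 0.054), *MCU4* (-0.30 to 0.61), *MICU* (-0.10 to 0.16), *ANAC017* (-0.089 to 0.031) and AT5G24230 (-0.041 to 0.49). The 2 alternatives with models of counts were not run, because whole reads could not be recovered from the values.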

Other observations

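Without replicate 2 of 2OX, 81 genes outside the 34 were called, and 3 of them are given here, picked after their values were seen. No list of their pathways was tested, and with all libraries none of the 3 was called. *BCAT-2*, an aminotransferase gene of branched-chain amino acid breakdown, was at 1652, 112 and 809.6 in 2OX, against 357, 157 and 294 in Col-0. Replicate 2 of 2OX lay below all Col-0 libraries and the other 2OX libraries above them, so the difference was 1.06 with all libraries (adjusted p = 0.964) and 2.18 without replicate 2 (adjusted p = 0.00131, limma). *IPMI1*, an isopropylmalate isomerase gene of aliphatic glucosinolate synthesis, was at 311, 760.3 and 297 in 2OX, against 639.8, 854 and 893 in Col-0 (-0.93 with all libraries, adjusted p = 0.552; -1.37 without replicate 2, adjusted p = 0.000619). *MYB28*, which encodes a transcription factor of the same pathway, was at 393, 894 and 427 in 2OX, against 618, 954 and 930.1 in Col-0 (-0.62, adjusted p = 0.848 with all libraries and 0.0192 without replicate 2). With 3 libraries the data do not say which 2OX libraries are typical of the line.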
